A study of Mus musculus with 24 samples.

Results

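The Hox genes of mouse dorsal skin were taken as every row whose gene symbol in the GENCODE M21 annotation is Hoxa, Hoxb, Hoxc or Hoxd followed by a number of 1 to 13. Of 39 such genes in the annotation, 38 were among the 39017 rows of the tables, with 11 in the Hoxa cluster, 10 in Hoxb, 9 in Hoxc and 8 in Hoxd, and Hoxd4 was not analysed here. Hox genes encode homeodomain transcription factors, and their order along each cluster matches the order in which they are used along the body axis, from the low-numbered genes of the neck and front of the trunk to the high-numbered genes of the rear trunk, tail and limb ends. Genes with the same number in different clusters are paralogs. Adult dermal fibroblasts keep a Hox pattern that reflects the place of the skin they come from. Hoxc13 stands apart as a gene of the hair follicle, where in the mouse it is needed for hair keratin expression in the hair matrix and forming shaft.

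RNA was sequenced from dorsal skin of female C3H/HeJ mice aged about 30 weeks at termination, a strain in which alopecia areata (AA, an autoimmune loss of hair) is brought on by grafting skin from an affected mouse. There were 4 groups of 6 libraries. The systemic JAK1i group had AA and ate the Janus kinase 1 inhibitor Cmpd A at about 100 mg/kg a day for 4 weeks, and its skin was taken as biopsies from live mice at the end of treatment. The 8w off Tx group is skin taken at termination 8 weeks after that treatment ended and, by the study's methods, comes from the same mice, but the labels do not tie libraries to mice and the test treated all libraries as independent. The AA group had fully developed hair loss and was described as untreated, although its sample names hold the letters Vec. The healthy group had no AA and no treatment. The sources used here give no body position for the biopsies beyond dorsal skin. The systemic JAK1i group is therefore the single group in which treatment, week of sampling and live sampling coincide, and these, along with the exact biopsy site, cannot be told apart.

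Total counts per library were 5559273 to 11233020 in systemic JAK1i, 3444193 to 5766105 in 8w off Tx, 3859132 to 8472874 in AA and 3649611 to 6407908 in healthy skin. Levels of 1 gene between groups are given as CPM (counts scaled to library size by TMM), and levels of different genes as the deposited TPM, which corrects for transcript length. A gene is called where the adjusted p of edgeR's quasi-likelihood test, corrected by Benjamini-Hochberg over the 16248 genes past the filter on low counts, was below 0.05, and values after ± are standard errors. Of the 38 Hox genes, 26 passed the filter, 8 had counts but did not pass, and 4 (Hoxb13, Hoxd1, Hoxd12 and Hoxd13) had no count in any library. Markers of fibroblasts, keratinocytes and skeletal muscle were present in every group. Whole skin was sequenced, so fewer cells of a type and less RNA per cell cannot be told apart.

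The strongest differences below lie in the paralogs numbered 9 and 10, whose reads could in principle be confused with each other. No stretch of 76 bases, the length of 1 read, was shared by GENCODE M21 transcripts of any pair of Hoxa9, Hoxb9, Hoxc9, Hoxd9, Hoxa10 and Hoxc10. Over all 38 genes a single pair shared such a stretch, Hoxc5 and Hoxc10, because the first exon of 1 Hoxc5 transcript lies within Hoxc10 and holds 166 bases of it.

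Per length of transcript, on the TPM scale, the highest means over the 24 libraries were those of Hoxa7 with 6.59 TPM and Hoxc6 with 5.79 TPM, followed by Hoxd3 with 3.19 TPM, Hoxa5 with 3.18 TPM, Hoxa3 with 3.18 TPM and Hoxd8 with 3.11 TPM. The order differed by group. Hoxa7 led in systemic JAK1i (13.17 TPM), Hoxc6 in 8w off Tx (3.43 TPM) and healthy skin (6.26 TPM), and Hoxc13 in AA (4.72 TPM). Hoxb3, at 2.45 TPM, was the highest of the Hoxb cluster over all libraries. The members of paralogs 9 and 10 lay at 0.28 to 1.04 TPM, with Hoxc10 the lowest and Hoxa9 the highest. Beyond paralog 10 only Hoxc13 passed the filter, at 2.80 TPM, and no other member numbered 11 to 13 had more than 18 reads over all libraries. The TPM table listed small values for Hoxd1 and Hoxd13, which had no counts, so that both tables were not made from the same assignment of reads.

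Systemic JAK1i against healthy sets treated skin beside healthy skin, with the limits on week, live sampling and biopsy site given above. Of 26 Hox genes tested, 6 were called and all 6 were higher in systemic JAK1i, against 1.05% of all genes called in this comparison. Of the 6, 5 were paralogs 9 or 10 (Hoxa9, Hoxa10, Hoxb9, Hoxc9 and Hoxc10). These 5 passed the filter on low counts only through systemic JAK1i, where they were high, and would not have been tested without that group, so their number among the genes tested is partly set by the filter. In the fit without a filter all 7 genes of paralogs 9 and 10 were tested, and the same 5 were called higher while Hoxd9 and Hoxd10 were not, beside 0.36% of all genes. The remaining call was Hoxc5. None of the 8 tested genes of paralogs 1 to 4 was called. Of the 26 tested, 13 were at an unadjusted p below 0.05, 10 higher and 3 lower. The share of all genes at that level was not determined. Summed over all 7 genes of paralogs 9 and 10, whether past the filter or not, the level was 27.4 to 37.0 CPM in systemic JAK1i, 6.33 to 10.6 CPM in 8w off Tx, 6.61 to 9.39 CPM in AA and 6.63 to 12.3 CPM in healthy skin.

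**Figure D1:**
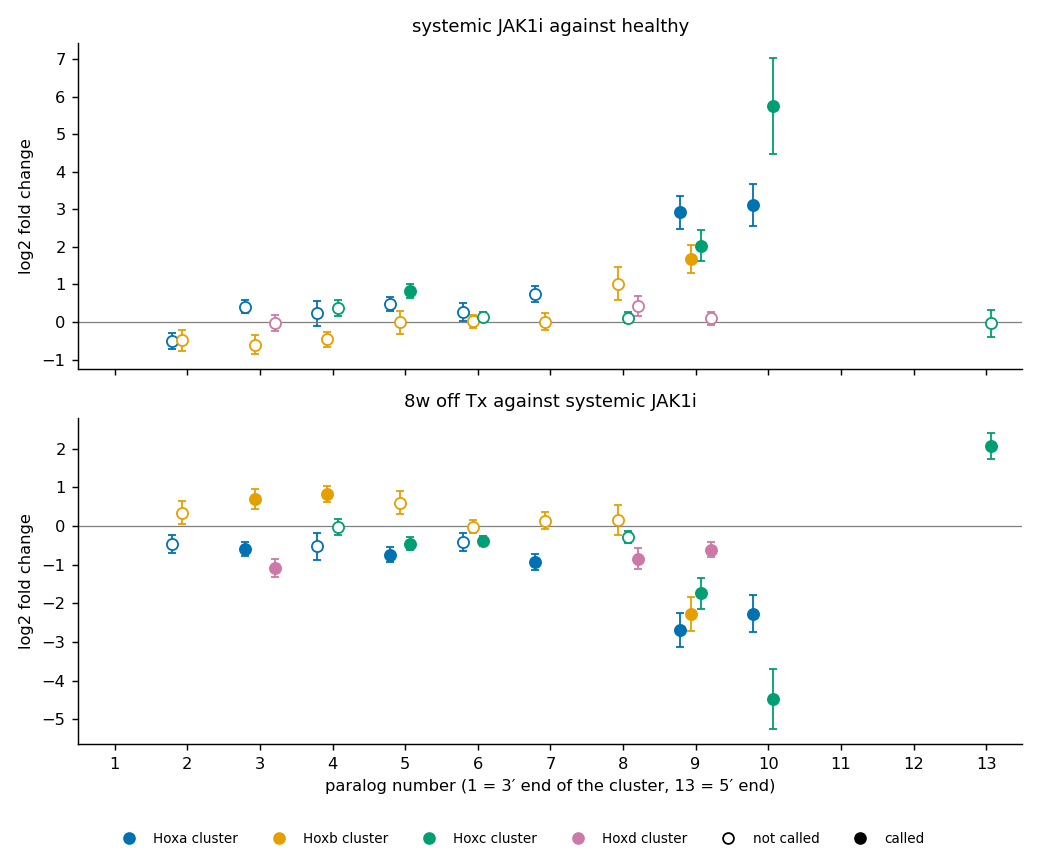
Log2 fold change of each tested Hox gene (y axis, error bars 1 standard error) against its paralog number (x axis), coloured by cluster, filled where called and open where not; upper panel systemic JAK1i against healthy, lower panel 8w off Tx against systemic JAK1i. Paralogs 9 and 10 of the Hoxa, Hoxb and Hoxc clusters stand above the other members in the upper panel and below them in the lower, while Hoxd9 lies at 0.10 and -0.61.

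Hoxa9 had 7.98 to 12.4 CPM (median 9.53) in systemic JAK1i, 0.193 to 3.98 CPM (median 1.34) in 8w off Tx, 0 to 2.15 CPM (median 1.33) in AA and 0.569 to 2.77 CPM (median 1.20) in healthy skin. Every systemic JAK1i library was above every library of the other 3 groups, and those 3 overlapped each other. The log2 fold change of systemic JAK1i against healthy was 2.92 ± 0.44, a 7.57-fold difference (adjusted p = 0.00206). Hoxa10, its neighbour in the cluster, had 2.21 to 6.89 CPM (median 4.41) in systemic JAK1i, 0.324 to 1.77 CPM (median 0.662) in 8w off Tx, 0.191 to 1.59 CPM (median 0.711) in AA and 0 to 1.03 CPM (median 0.481) in healthy skin. Again the systemic JAK1i libraries did not overlap the rest, and the log2 fold change against healthy was 3.11 ± 0.55 (adjusted p = 0.00478). In the mouse, genes of paralog group 9 and 10 are known for patterning the rear trunk and the hind limb.

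Hoxc10, a gene linked in mice to the lumbar region and the hind limb, was close to absent outside systemic JAK1i. Its summed reads were 122 in systemic JAK1i, found in all 6 libraries with 13 to 35 reads each, 3 in 8w off Tx, 11 in AA and 1 in healthy skin. The ratio of summed reads in systemic JAK1i to those in healthy skin after scaling was 93.7, with a 95% counting interval of 16.5 to 3733, and rests on the single healthy read, in library F. The fold fitted by edgeR, which depends on the prior count, was 54.0 (adjusted p = 7.57e-06). The ratio of systemic JAK1i to AA was 7.85 (4.24 to 16.2). Such intervals cover the error of counting and not the spread between mice. The next gene of the cluster, Hoxc11, did not pass the filter and had 11 reads in 4 of the 6 systemic JAK1i libraries and 0 in the 18 others.

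Hoxc9 had 3.13 to 5.59 CPM (median 4.29) in systemic JAK1i, 0.885 to 2.51 CPM (median 1.01) in 8w off Tx, 0.689 to 3.92 CPM (median 1.53) in AA and 0 to 1.98 CPM (median 1.24) in healthy skin. Systemic JAK1i lay above healthy in every library (log2 fold change 2.03 ± 0.41, adjusted p = 0.0164), and 1 AA library, C, reached into its range. Hoxb9 had 2.32 to 5.27 CPM (median 3.14) in systemic JAK1i, 0 to 1.30 CPM (median 0.465) in 8w off Tx, 0.453 to 1.61 CPM (median 0.776) in AA and 0.593 to 1.85 CPM (median 0.936) in healthy skin. Its libraries did not overlap either, with a log2 fold change against healthy of 1.68 ± 0.38 (adjusted p = 0.0240), but this call was lost when any of healthy C, D or E or systemic JAK1i C or E was left out.

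Members of the Hoxd cluster did not share this pattern. Hoxd9 had 4.05 to 5.62 CPM (median 5.06) in systemic JAK1i, 2.05 to 4.54 CPM (median 3.19) in 8w off Tx, 1.85 to 3.18 CPM (median 2.20) in AA and 3.57 to 5.40 CPM (median 4.83) in healthy skin. Systemic JAK1i and healthy libraries overlapped, and the log2 fold change between them was 0.10, with a 95% interval of -0.25 to 0.45. Hoxd10 missed the filter with 165 reads, and had 1.26 to 2.21 CPM in systemic JAK1i, 0.442 to 1.30 CPM in 8w off Tx, 0 to 0.869 CPM in AA and 1.19 to 2.46 CPM in healthy skin.

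**Figure D2:**
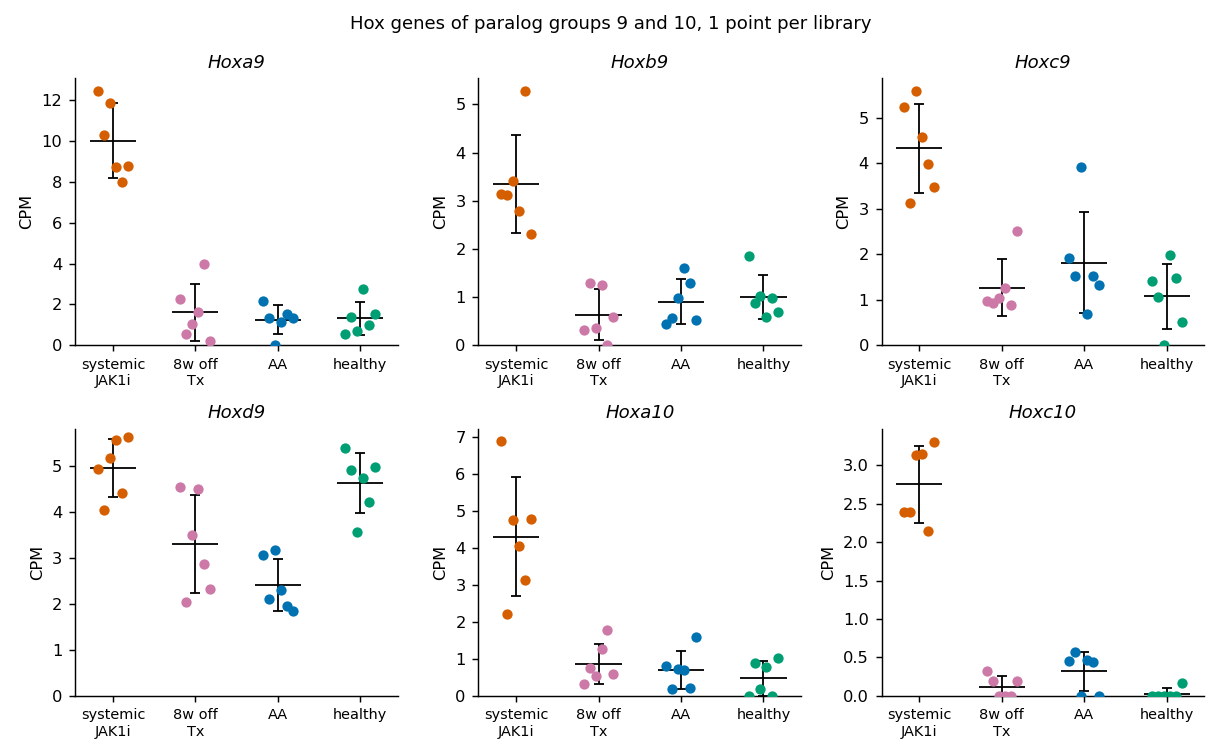
CPM of the 6 tested genes of paralogs 9 and 10 (y axis, from 0) in 24 libraries, 1 point per library, grouped as systemic JAK1i, 8w off Tx, AA and healthy; lines are means and bars 1 SD (n = 6). For Hoxa9, Hoxa10, Hoxb9 and Hoxc10 the 6 systemic JAK1i points lie above all 18 others, whereas those of Hoxd9 overlap the healthy points.

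Hoxc5, which belongs to the front and middle of the cluster, had 9.98 to 14.2 CPM (median 11.6) in systemic JAK1i, 5.98 to 14.2 CPM (median 8.01) in 8w off Tx, 4.21 to 7.34 CPM (median 5.74) in AA and 5.46 to 7.32 CPM (median 7.05) in healthy skin. Against healthy the log2 fold change was 0.83 ± 0.17 (adjusted p = 0.0210), far below that of the paralogs 9 and 10, and the call was lost without healthy A, healthy E or systemic JAK1i B. Its overlap with Hoxc10 noted above touches 166 of its 3089 exon bases, and which gene received reads from there is not given in the sources used here. Hoxa7 was separated too, at 22.1 to 32.9 CPM (median 24.7) in systemic JAK1i, 8.69 to 19.8 CPM (median 13.7) in 8w off Tx, 8.04 to 16.7 CPM (median 11.8) in AA and 8.33 to 21.2 CPM (median 14.9) in healthy skin. With a log2 fold change against healthy of 0.75 ± 0.21 its adjusted p of 0.0710 missed the threshold, while DESeq2 and limma-voom called it.

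Shares of the Hox counts give the same comparison within each library, without scaling between libraries. Of all Hox counts other than those of Hoxc13, paralogs 9 and 10 held 12.7% to 17.4% (median 14.4%) in systemic JAK1i, 5.09% to 6.31% (median 6.07%) in 8w off Tx, 5.57% to 8.41% (median 6.34%) in AA and 4.24% to 7.60% (median 6.12%) in healthy skin. Each of the 6 systemic JAK1i libraries was thus above each of the 18 others. Paralogs 1 to 4 held 22.6% to 26.99% in systemic JAK1i, 27.5% to 35.5% in 8w off Tx, 27.8% to 32.9% in AA and 30.4% to 42.1% in healthy skin. Shares within a library sum to a fixed total, so a higher share of 1 class lowers the others. The level of paralogs 1 to 4 was 53.1 ± 5.59 CPM in systemic JAK1i, 45.3 ± 3.08 CPM in 8w off Tx, 36.5 ± 3.47 CPM in AA and 54.7 ± 8.14 CPM in healthy skin (SD, n = 6 each), so that the lower share in systemic JAK1i than in healthy skin came with overlapping levels. Paralogs 5 to 8 held 58.1% to 62.0% in systemic JAK1i and 53.5% to 62.1% in healthy skin, which overlapped. These shares rest on 428 to 2214 reads per library and have no test.

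**Figure D3:**
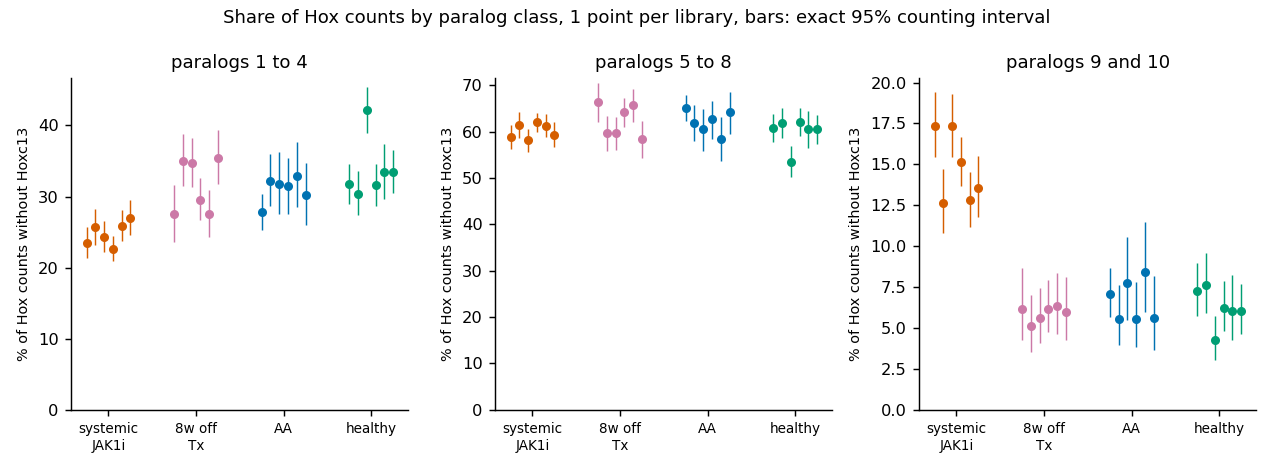
Share of Hox counts without Hoxc13 (y axis, percent, from 0) held by paralogs 1 to 4, 5 to 8, and 9 and 10, 1 point per library in the groups systemic JAK1i, 8w off Tx, AA and healthy, with exact 95% binomial intervals that cover counting error. Paralogs 9 and 10 held at least 12.7% in each systemic JAK1i library and at most 8.41% in each other library.

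Skeletal muscle markers were set beside these genes. The summed level of 15 muscle markers was 65410 to 82040 CPM in systemic JAK1i, 22400 to 108500 CPM in 8w off Tx, 18620 to 52110 CPM in AA and 1221 to 73320 CPM in healthy skin. Of the 15, 1 was called between systemic JAK1i and healthy skin, beside 1.05% of all genes. Healthy libraries A, C and E held 1458, 13231 and 1221 CPM of muscle markers and had 0.569, 0.680 and 0.993 CPM of Hoxa9. Healthy libraries B, D and F held 54718, 53877 and 73316 CPM of muscle markers and had 1.41, 2.77 and 1.54 CPM of Hoxa9. In 8w off Tx, libraries A and E exceeded every systemic JAK1i library in muscle (96923 and 108468 CPM) with 2.27 and 3.98 CPM of Hoxa9. Its libraries B, C, D and F held 22404, 44327, 74030 and 30490 CPM of muscle markers and had 0.559, 1.05, 1.62 and 0.193 CPM of Hoxa9. Within healthy skin and within 8w off Tx, Hoxa9 thus tended to be higher where muscle was higher. In healthy skin Hoxa10 did too, with 0 to 0.170 CPM in A, C and E. It had 0.791 to 1.03 CPM in B, D and F. Hoxb9 went the other way, with 0.993 to 1.85 CPM in healthy A, C and E. It had 0.593 to 0.878 CPM in healthy B, D and F. In 8w off Tx, A and E had 0.324 and 0 CPM of Hoxb9, against 0.351 to 1.30 CPM in the other libraries. Hoxa10 in 8w off Tx and Hoxc9 in both groups kept no such order. The part of muscle in the Hox values was not tested. When healthy A and E were both left out, 3 of the 6 Hox calls remained (Hoxa9, Hoxa10 and Hoxc10), with log2 fold changes of 2.65, 2.56 and 5.40, and calls over all genes fell to 12 of 16576 (0.0724%), against 170 of 16248 with every library. The 3 genes no longer called, Hoxb9, Hoxc9 and Hoxc5, had log2 fold changes of 2.04, 2.32 and 0.78 in that fit. None of 12 fibroblast markers and none of 9 keratinocyte markers was called between systemic JAK1i and healthy skin with every library. As 1.05% of all genes were called there, lists this short could hold no call at that share. Fibroblast sums were 5491 to 10510 CPM in systemic JAK1i and 2987 to 7969 CPM in healthy skin.

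Other transcripts from along the clusters were read for the same contrast. Of 39 non-Hox genes measured within the 4 clusters, 8 could be tested. Of these, 1 was called between systemic JAK1i and healthy skin, beside 1.05% of all genes. This was Gm53, a long non-coding RNA that lies between Hoxb9 and Hoxb13. Gm53 had 4.47 to 14.9 CPM (median 9.73) in systemic JAK1i, 1.77 to 7.82 CPM (median 3.45) in 8w off Tx, 1.92 to 10.6 CPM (median 4.26) in AA and 1.20 to 4.55 CPM (median 2.45) in healthy skin. The ranges overlapped slightly, with a log2 fold change against healthy of 1.90 ± 0.40 (adjusted p = 0.0204). Clusters also hold the miR-196 genes beside their paralogs 9 and 10, microRNAs that in mice cleave Hoxb8 mRNA, and their mature forms from RefSeq (GRCm38.p6) are given with the seed, bases 2 to 8, in capitals.
miR-196a-5p of Mir196a-1 (chr11:96265187-96265208, plus strand) and of Mir196a-2 (chr15:102973365-102973386, plus strand): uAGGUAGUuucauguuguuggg
miR-196b-5p of Mir196b (chr6:52230129-52230150, minus strand): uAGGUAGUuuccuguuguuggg
Both share 1 seed. Reads over the Mir196a-1 gene numbered 31 in systemic JAK1i, 16 in 8w off Tx, 15 in AA and 6 in healthy skin, and over Mir196a-2 they numbered 8 in systemic JAK1i, 0 in 8w off Tx, 1 in AA and 0 in healthy skin. Mir196b had no read. Such libraries do not measure the mature microRNA, and none of these genes could be tested.

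Among 30 other transcription factors and regulators of body position, 18 were tested. Of these, 1 was called between systemic JAK1i and healthy skin, beside 1.05% of all genes. This was Sim1, named here because it was the only call, which had 2.16 to 4.49 CPM (median 2.89) in systemic JAK1i, 0.702 to 3.54 CPM (median 1.31) in 8w off Tx, 0 to 1.85 CPM (median 0.826) in AA and 0 to 1.19 CPM (median 0.261) in healthy skin. Its log2 fold change against healthy was 2.78 ± 0.65 (adjusted p = 0.0204). Tbx15, which marks the dorsal trunk dermis in mice, differed by 0.79 ± 0.20 on the log2 scale and missed the threshold (adjusted p = 0.0577). Genes of limb identity were picked after their values were seen and did not move one way. Of the hind limb, Pitx1 had 39 reads in systemic JAK1i, 13 in 8w off Tx, 10 in AA and 13 in healthy skin, and Tbx4 had 42 in systemic JAK1i, 79 in 8w off Tx, 58 in AA and 22 in healthy skin. Tbx4 was tested and not called between systemic JAK1i and healthy skin (log2 fold change 0.57, adjusted p = 0.718). Tbx5, of the fore limb, had 1 read in systemic JAK1i, 14 in 8w off Tx, 5 in AA and 3 in healthy skin, while its mean TPM was 0.703 in systemic JAK1i, 0.329 in 8w off Tx, 0.407 in AA and 0.450 in healthy skin, so that the tables differ in order for this gene. None of 9 Hox cofactors of the Pbx, Meis and Pknox families was called between systemic JAK1i and healthy skin, again beside 1.05% of all genes.

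Comparison of 8w off Tx with systemic JAK1i follows skin after treatment ended. Of 26 Hox genes 16 were called, 13 lower and 3 higher in 8w off Tx, against 35.9% of all genes. The 6 tested genes of paralogs 9 and 10 were lower, of which 5 had passed the filter only through systemic JAK1i, and without a filter all 7 were lower, beside 19.2% of all genes. The 5 that passed only through systemic JAK1i had libraries that did not overlap, while those of Hoxd9 overlapped. The share of all genes without overlap in this comparison was not determined. Hoxa9 had a log2 fold change of -2.68 ± 0.44 (adjusted p = 5.65e-05), Hoxb9 of -2.28 ± 0.43 (adjusted p = 0.000141) and Hoxa10 of -2.26 ± 0.48 (adjusted p = 0.000475). For Hoxc10 the 3 reads of 8w off Tx against 122 of systemic JAK1i gave a ratio of 0.0365 (95% counting interval 0.00742 to 0.109). Hoxd9 fell by 0.61 on the log2 scale (adjusted p = 0.0132). Because the systemic JAK1i libraries are shared, this comparison is not independent of the one with healthy skin.

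Further front in the clusters, calls between 8w off Tx and systemic JAK1i are given by cluster, and a difference between clusters was not tested. Hoxa3, Hoxa5, Hoxa7, Hoxc5, Hoxc6, Hoxd3 and Hoxd8 were lower in 8w off Tx, by 0.38 to 1.09 on the log2 scale. Hoxa2, Hoxa4, Hoxa6, Hoxc4 and Hoxc8 were not called. The call of Hoxc5 was lost in 14 of 24 alternative fits and that of Hoxc6 in 5. No member of Hoxb from paralog 2 to 8 was called lower, and Hoxb4 and Hoxb3 were higher. Hoxb4 had 8.76 to 15.6 CPM (median 11.6) in 8w off Tx, 5.13 to 8.60 CPM (median 6.82) in systemic JAK1i, 6.68 to 14.5 CPM (median 9.76) in AA and 7.11 to 13.1 CPM (median 8.05) in healthy skin. Hoxb3 had 2.92 to 6.37 CPM (median 4.61) in 8w off Tx, 1.71 to 4.63 CPM (median 2.56) in systemic JAK1i, 3.06 to 4.78 CPM (median 3.57) in AA and 3.09 to 6.12 CPM (median 3.92) in healthy skin. Their log2 fold changes were 0.83 ± 0.20 (adjusted p = 0.00278) and 0.70 ± 0.25 (adjusted p = 0.0305), and on the log2(TPM + 0.1) scale, where the median of all genes shifted by -1.11 in this comparison, both turned to -0.47 and -0.38. The Hoxb3 call was also lost, with its sign kept, in 10 of 24 alternative fits. Of 12 fibroblast markers 10 were lower in 8w off Tx than in systemic JAK1i (summed level 2676 to 4582 CPM in 8w off Tx against 5491 to 10510 CPM in systemic JAK1i). All 8 adipocyte markers and 4 of 6 endothelial markers were lower too, beside 16.6% of all genes. The part of these in the Hox differences was not tested.

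AA against healthy shows the Hox pattern of untreated disease. Of 26 Hox genes 9 were called, 2 higher and 7 lower in AA, against 40.2% of all genes. Hoxc13 and Hoxc10 were higher. Hoxa2, Hoxa3, Hoxc6, Hoxc8, Hoxd3, Hoxd8 and Hoxd9 were lower, which includes all 3 tested genes of the Hoxd cluster and none of the 8 of Hoxb. The share of members called was below the background of this comparison. Hoxc10 rested on 11 reads in AA, spread over 4 libraries, against 1 in healthy skin (ratio 11.9, 95% counting interval 1.74 to 514, adjusted p = 0.00703). No AA or healthy library reached the filter's cutoff for Hoxc10, so it was tested here only through systemic JAK1i. Its call was lost in 3 of 22 alternative fits.

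Hoxa2, which in the embryo acts in the hindbrain and neck region, had 2.79 to 4.78 CPM (median 3.73) in systemic JAK1i, 1.23 to 4.87 CPM (median 2.51) in 8w off Tx, 0.918 to 2.30 CPM (median 1.69) in AA and 4.04 to 6.13 CPM (median 5.28) in healthy skin. All AA libraries were below all healthy ones (log2 fold change -1.59 ± 0.25, adjusted p = 3.1e-05). Hoxd3 had 13.49 to 17.9 CPM (median 16.5) in systemic JAK1i, 5.09 to 10.98 CPM (median 7.49) in 8w off Tx, 3.17 to 8.26 CPM (median 7.92) in AA and 8.26 to 21.8 CPM (median 16.2) in healthy skin. The highest AA and the lowest healthy library were equal to 3 digits, and the log2 fold change was -1.27 ± 0.23 (adjusted p = 0.000129). Hoxd9, whose values stand above, differed by -0.93 ± 0.20 (adjusted p = 0.00063) with no overlap between AA and healthy.

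**Figure D4:**
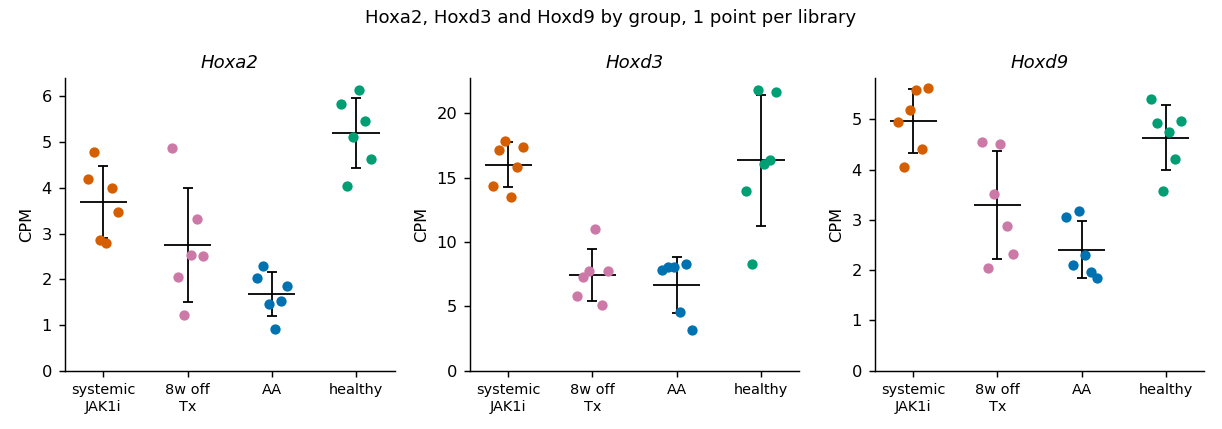
CPM of Hoxa2, Hoxd3 and Hoxd9 (y axis, from 0) in 24 libraries, 1 point per library, grouped as systemic JAK1i, 8w off Tx, AA and healthy; lines are means and bars 1 SD (n = 6). The AA points lie at or below the lowest healthy point for each gene, at most 2.30, 8.26 and 3.18 CPM.

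Smaller differences were found for the other members called. Hoxa3 had 9.98 to 14.5 CPM (median 12.3) in systemic JAK1i, 5.40 to 11.4 CPM (median 8.00) in 8w off Tx, 3.69 to 7.57 CPM (median 5.22) in AA and 7.37 to 12.3 CPM (median 8.93) in healthy skin. Hoxd8 had 18.2 to 26.5 CPM (median 23.1) in systemic JAK1i, 6.89 to 18.6 CPM (median 13) in 8w off Tx, 6.43 to 15.4 CPM (median 9.13) in AA and 6.70 to 27.8 CPM (median 15.5) in healthy skin. In AA their log2 fold changes against healthy were -0.82 ± 0.18 (adjusted p = 0.00112) and -0.75 ± 0.28 (adjusted p = 0.0341). The Hoxd8 call was lost in 13 of 24 alternative fits, among them limma-voom and those without AA B, D, E or F or healthy D or F. Hoxc6 had 12.5 to 16.5 CPM (median 14.3) in systemic JAK1i, 9.26 to 13.3 CPM (median 10.4) in 8w off Tx, 7.17 to 10.9 CPM (median 8.95) in AA and 8.61 to 15.3 CPM (median 13.3) in healthy skin. Hoxc8 had 10.1 to 14.2 CPM (median 11.2) in systemic JAK1i, 7.53 to 12.2 CPM (median 9.42) in 8w off Tx, 4.78 to 9.30 CPM (median 7.73) in AA and 6.85 to 12.9 CPM (median 10.5) in healthy skin. Both differed in AA by about the same amount, -0.49 ± 0.14 and -0.52 ± 0.17 on the log2 scale, and their AA and healthy libraries overlapped. Fibroblast markers were lower in AA than in healthy skin for 5 of 12, with a summed level of 2221 to 9661 CPM in AA and 2987 to 7969 CPM in healthy skin. Lower too were 7 of 8 adipocyte and 5 of 6 endothelial markers, beside 19.3% of all genes. The part of these markers in the Hox values was not tested. Of the 9 cofactors, 3 were lower and 1 was higher in AA, and Meis2 was among the lower (-0.92 ± 0.17, adjusted p = 0.000156). Of 18 positional factors 7 were lower, among them the mesenchymal regulators Prrx1 and Nr2f2, and 2 were higher.

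Systemic JAK1i against AA sets treated beside untreated diseased skin, where week, live sampling and biopsy site cannot be told apart from treatment. Of 26 Hox genes 20 were called, 17 higher and 3 lower in systemic JAK1i, against 47.7% of all genes. Higher genes were the 6 tested members of paralogs 9 and 10 (5 of them tested only through systemic JAK1i, and all 7 higher without a filter, beside 26.9% of all genes), 7 of 11 of paralogs 5 to 8 and 4 of 8 of paralogs 1 to 4, and by cluster 7 of 8 of Hoxa, 6 of 7 of Hoxc, 3 of 3 of Hoxd and 1 of 8 of Hoxb. The Hoxa9 log2 fold change was 2.89 ± 0.45 (adjusted p = 1.37e-05) and that of Hoxa3 1.23 ± 0.18 (adjusted p = 1.27e-05). Hoxa2, Hoxd3, Hoxd8 and Hoxd9 were higher by 1.02 to 1.24, and none of these 4 was called between systemic JAK1i and healthy skin. Hoxa5 had 14.04 to 18.7 CPM (median 16.2) in systemic JAK1i, 5.77 to 13.1 CPM (median 10.5) in 8w off Tx, 5.38 to 10.8 CPM (median 8.53) in AA and 7.99 to 14.9 CPM (median 11.8) in healthy skin, and was higher than in AA by 0.95 ± 0.20 (adjusted p = 0.000425). In the same comparison 6 of 12 fibroblast, 8 of 8 adipocyte and 5 of 6 endothelial markers were higher in systemic JAK1i, beside 22.9% of all genes. Lower were 7 of 8 T cell and 4 of 6 melanocyte markers, beside 24.8% of all genes, and 1 melanocyte marker was higher. Of 15 skeletal muscle markers 2 were higher, with summed levels that did not overlap (65410 to 82040 CPM in systemic JAK1i and 18620 to 52110 CPM in AA). The part of these in the Hox values was not tested.

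Hoxa6, Hoxc4 and Hoxb2 were called in this comparison alone. Hoxa6 had 8.09 to 12.95 CPM (median 10.8) in systemic JAK1i, 4.47 to 11.7 CPM (median 7.83) in 8w off Tx, 4.13 to 10.8 CPM (median 5.89) in AA and 5.32 to 12.1 CPM (median 8.72) in healthy skin. Hoxc4 had 4.94 to 7.36 CPM (median 6.30) in systemic JAK1i, 3.86 to 8.43 CPM (median 5.97) in 8w off Tx, 1.91 to 5.02 CPM (median 3.56) in AA and 3.84 to 6.34 CPM (median 4.47) in healthy skin. They were higher than in AA by 0.70 ± 0.25 and 0.80 ± 0.22 on the log2 scale, with overlapping libraries. Hoxb2 had 0.570 to 1.77 CPM (median 1.34) in systemic JAK1i, 0.973 to 2.81 CPM (median 1.33) in 8w off Tx, 1.30 to 3.40 CPM (median 2.37) in AA and 1.56 to 2.21 CPM (median 1.73) in healthy skin. The log2 fold change against AA was -0.88 ± 0.28, and that of Hoxb4 was -0.61 ± 0.21, but on the log2(TPM + 0.1) scale, where the median of all genes shifted by 0.65, the values were 0.11 and 0.23 and neither was called.

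Against healthy skin, 8w off Tx had 5 Hox genes called, 2 higher and 3 lower, against 32.7% of all genes. Hoxc13 and Hoxb8 were higher, and Hoxa2 (-0.97 ± 0.24), Hoxd3 (-1.12 ± 0.23) and Hoxd9 (-0.51 ± 0.19) were lower. Hoxb8 had 1.08 to 2.02 CPM (median 1.53) in systemic JAK1i, 0.442 to 2.46 CPM (median 1.81) in 8w off Tx, 0.245 to 1.61 CPM (median 0.609) in AA and 0 to 1.19 CPM (median 0.761) in healthy skin. It reached the filter's cutoff in 3 libraries each of systemic JAK1i and 8w off Tx and in none of AA and healthy skin. Its libraries overlapped (log2 fold change 1.18 ± 0.45, adjusted p = 0.0395), and this call and that of Hoxd9 were lost in 7 and 8 of the 12 fits that left out 1 library. Of the tested genes of paralogs 9 and 10 only Hoxd9 was called.

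Between 8w off Tx and AA no Hox gene was called by edgeR, against 1.37% of all genes. At an unadjusted p below 0.05 there were 8, 7 higher and 1 lower, with no share of all genes determined. By DESeq2 2 were called, Hoxc4 and Hoxa3, beside 3.87% of all genes. Both DESeq2 calls were higher in 8w off Tx. For Hoxa9 the log2 fold change was 0.21 with a 95% interval of -0.81 to 1.23, and for Hoxc13 it was -0.10 with an interval of -0.73 to 0.53, which leaves differences of that size undetected. The members past the filter that were called in no comparison were Hoxa4, Hoxb5, Hoxb6 and Hoxb7. Hoxb6 had medians of 6.56 CPM in systemic JAK1i, 6.50 CPM in 8w off Tx, 6.55 CPM in AA and 6.07 CPM in healthy skin.

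Hoxc13 followed another order than the rest of its cluster. It had 4.56 to 11.4 CPM (median 5.89) in systemic JAK1i, 9.73 to 43.0 CPM (median 31.1) in 8w off Tx, 18.5 to 41.2 CPM (median 30.5) in AA and 2.81 to 9.43 CPM (median 7.43) in healthy skin. AA and 8w off Tx libraries were all above the healthy ones, with log2 fold changes of 2.14 ± 0.35 (adjusted p = 5.46e-05) and 2.05 ± 0.35 (adjusted p = 0.000155). In systemic JAK1i it was lower than in AA by 2.18 on the log2 scale (log2 fold change -2.18 ± 0.34, adjusted p = 2.97e-05), and its difference from healthy was -0.03 with a 95% interval of -0.75 to 0.68.

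Genes of the hair matrix and shaft took the same order. Of 17 tested, 16 were higher in AA than in healthy skin, beside 20.9% of all genes. In 8w off Tx 16 were higher than in healthy skin, beside 16.9% of all genes. In systemic JAK1i 16 were lower than in AA, beside 24.8% of all genes. None was called between systemic JAK1i and healthy skin, where 1.05% of all genes were called. Foxn1, a regulator of hair keratins that lies downstream of Hoxc13 in mice, had 6.42 to 11.9 CPM (median 8.78) in systemic JAK1i, 17.5 to 44.2 CPM (median 35.1) in 8w off Tx, 22.2 to 48.6 CPM (median 30.2) in AA and 7.52 to 15.1 CPM (median 9.73) in healthy skin. Krt35, a hair keratin of the matrix and cuticle, had 0.570 to 4.32 CPM (median 3.17) in systemic JAK1i, 3.24 to 246 CPM (median 169) in 8w off Tx, 88.8 to 329 CPM (median 175) in AA and 0.176 to 11.3 CPM (median 1.43) in healthy skin. The spread within 8w off Tx was set by libraries A and E. They had 11.03 and 9.73 CPM of Hoxc13 and a summed hair level of 121 and 64.1 CPM, against 24.3 to 43.0 CPM and 1676 to 3855 CPM in the other 4. These 2 libraries also had the highest muscle marker sums of their group.

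**Figure D5:**
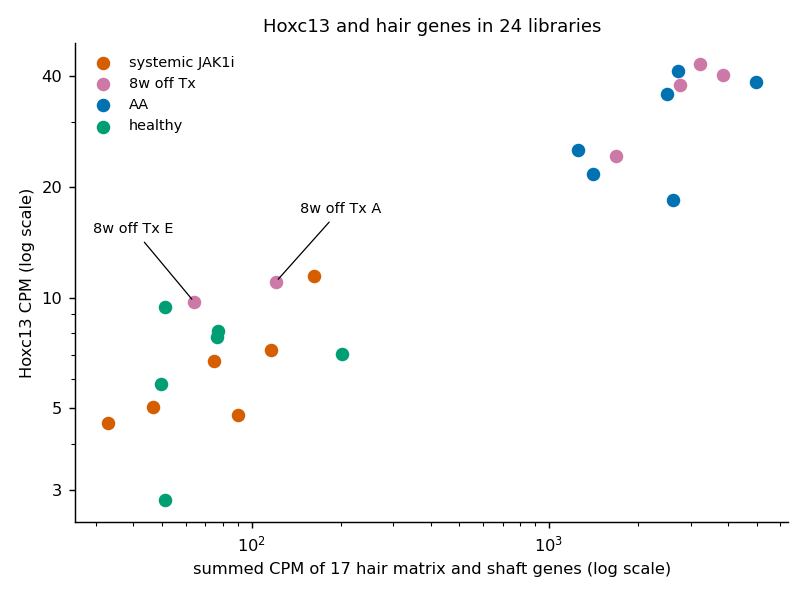
Hoxc13 level (y axis, CPM, log scale) against the summed level of 17 hair matrix and shaft genes (x axis, CPM, log scale) in 24 libraries, 1 point per library, coloured by group in the order systemic JAK1i, 8w off Tx, AA and healthy. The 6 AA libraries and 4 of the 8w off Tx libraries lie at 18.5 CPM of Hoxc13 or more, while 8w off Tx A and E lie beside the systemic JAK1i and healthy libraries.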

How the data were processed

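The study aligned reads of 2 × 76 bases from rRNA-depleted total skin RNA to mm10/GRCm38 with HISAT2 2.0.1, and the authors counted reads per Ensembl gene with featureCounts 1.4.4. For annotation release, strand setting and multi-mapping reads the sources used here name no choice, so reads of overlapping or antisense genes may not be told apart, and 19 Hox genes overlap another annotated gene. The deposited count table was used as given, and the deposited TPM table, of a tool not given in the sources used here, for levels between genes. Groups came from the labels. A further 6 columns of each table matched no sample and were left out.

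Names came from GENCODE M21 (37693 of 39017 IDs). Counts were tested with edgeR 4.0.16 in R 4.3.3 (quasi-likelihood F test, TMM, filterByExpr with a minimum count of 10, 1 fit of all 24 libraries). Alternatives were RLE, no filter, at least 20 counts in 6 libraries, the replicate letter as a block, 2-group fits, DESeq2 1.42.0, limma-voom, limma 3.58.1 on log2(TPM + 0.1) with and without a filter and on log2(TPM + 1), and each library left out. Leaving out 8w off Tx A and E or healthy A and E, and centred TPM, were added after the data were seen. Scripts were tested on simulated data. No pair of libraries in a group was a duplicate. Whether libraries of a group come from separate mice is not stated for each, so p-values measure the spread between these libraries.

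The members, gene lists and tests were chosen with earlier results of these data known. Values are given by library range for each member called in at least 1 of 6 comparisons, Hoxc13, and the member of highest mean TPM in each cluster, and other members by range and count. Of the other lists, up to 5 genes with the smallest adjusted p and the 2 of highest mean TPM could be named. Sim1, Gm53, Pitx1, Tbx4, Tbx5 and the miR-196 genes were named after their values were seen. Intervals for shares are exact binomial, those for ratios exact conditional, at 95%, and those for log2 fold changes are 1.96 standard errors either side. Coding sequences of the Hox genes are not reported here.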

Additional observations from a re-analysis of the deposited data

Results flagged for a closer look

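Of 104 sets of 6 libraries (26 Hox genes in 4 groups), 7 held a library far from the other 5 by Dixon's ratio, and chance alone marks about 1 set in 20. In systemic JAK1i, library E had 32.9 CPM of Hoxa7 (others 22.1 to 26) and 5.27 CPM of Hoxb9 (others 2.32 to 3.41), and library B had 14.2 CPM of Hoxc8 (others 10.1 to 11.6). In 8w off Tx, library D had 14.2 CPM of Hoxc5 (others 5.98 to 9.07) and library F had 2.51 CPM of Hoxc9 (others 0.885 to 1.26). In healthy skin, library A had 1.85 CPM of Hoxb9 (others 0.593 to 1.02), and library F held the single Hoxc10 read of the group, 0.171 CPM. No explanation was tested for any of these.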

How the results depend on the processing

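Under RLE scaling the calls of all 6 comparisons kept their number. The count of Hox genes called for systemic JAK1i against healthy was 6, and 4 to 6 with 1 library left out. It was 2 with at least 20 counts in 6 libraries, which left Hoxa10, Hoxb9, Hoxc9 and Hoxc10 untested, and 3 without healthy A and E, where 0.0724% of all genes were called. Hoxa9, Hoxa10, Hoxc9 and Hoxc10 were called in each of the 12 fits that left out 1 library. For 8w off Tx against healthy the count was 5, and 3 to 6 with 1 library left out (3 without 8w off Tx B or F). There it was 3 without a filter, 3 without healthy A and E, and 15, 16 and 14 on log2(TPM + 0.1), log2(TPM + 1) and unfiltered log2(TPM + 0.1), with 49.5%, 48.3% and 39.6% of all genes called against 32.7%. On those 3 scales 8w off Tx against systemic JAK1i gave 26, 25 and 26 in place of 16 (14 to 17 with 1 library left out), where 70%, 70.8% and 58.4% of all genes were called against 35.9%, and centring each library of log2(TPM + 0.1) gave 5 and 13. For 8w off Tx against AA DESeq2 gave 2 in place of 0, and leaving out 1 library 0 to 1 (1 without AA D, 8w off Tx B or 8w off Tx F). The range with 1 library left out was 19 to 22 for systemic JAK1i against AA and 9 to 11 for AA against healthy.

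Reversed signs occurred only for Hoxb genes on the uncentred TPM scales. For systemic JAK1i against AA, Hoxb2 was 0.114, 0.017 and 0.114 and Hoxb4 0.234, 0.111 and 0.234 on log2(TPM + 0.1), log2(TPM + 1) and unfiltered log2(TPM + 0.1). For 8w off Tx against systemic JAK1i, Hoxb3 was -0.376, -0.245 and -0.376 and Hoxb4 -0.466, -0.225 and -0.466. None was called there. With each library of log2(TPM + 0.1) centred, which removes the shift in the median of all genes given above, no sign was reversed. The cause was not tested further.

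Of 36 same-letter pairs of libraries, 6 correlated above 0.1 (range -0.243 to 0.424) and 4 correlated best with their own letter. By the study's methods only systemic JAK1i and 8w off Tx share mice, and their same-letter pairs ranged from -0.221 to 0.374. A low correlation cannot exclude a shared mouse, so whether letters pair these libraries was not settled. With the letter as a block, 5 Hox genes were called for systemic JAK1i against healthy, 20 for systemic JAK1i against AA, 8 for AA against healthy, 5 for 8w off Tx against healthy, 0 for 8w off Tx against AA and 15 for 8w off Tx against systemic JAK1i. Depth limits the members with few reads: 12 of 38 could not be tested, and Hoxc10 and Hoxc11 rest on 1 and 0 reads in healthy skin.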
